A study of Danio rerio with 12 samples.

Results

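The genes described here are the nucleotide sugar transporters, glycosyltransferases and carbohydrate sulfotransferases of zebrafish dorsal forerunner cells (DFCs). They were chosen by symbol: every gene whose symbol begins with slc35, galnt, b3gnt, b4galt, b3galt, ext1, ext2, extl, chst, hs2st, hs3st or hs6st, in either case, was taken. The rule itself uses no measured value, but members and lists were chosen with earlier results of these data known. This gave 103 of the 31953 genes of the deposited table: 15 SLC35A to SLC35D transporters, 12 SLC35E to SLC35G transporters, 17 GalNAc transferases, 21 beta-3 and beta-4 chain transferases, 6 exostosins, 15 CHST sulfotransferases and 17 heparan sulfate sulfotransferases. Another 19 genes carry such a name only in a newer reference table and were not counted as members.

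DFCs are a small cluster of cells at the leading edge of the dorsal margin of the gastrula that later forms Kupffer's vesicle, the ciliated left-right organizer of the fish. RNA was measured in 3 groups of 4 libraries from Tg(sox17:GFP) embryos, in which sox17 regulatory sequence drives green fluorescent protein in DFCs and in endodermal cells. The embryos had been injected at the 1-cell stage with a Vgll4l morpholino (Vgll4l knockdown), with Yap and Taz morpholinos together (Yap/Taz knockdown), or with a control morpholino (control). All were raised at 29 °C to 90% epiboly, and each library came from a single dissected cluster whose cDNA was amplified, so any cells dissected along with the DFCs would be in the library too. Injection at that stage reaches the whole embryo and not DFCs only, and all 3 groups carried the transgene and a morpholino.

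Glycans are built in the endoplasmic reticulum and the Golgi apparatus from sugars activated as nucleotide sugars, which are made in the cytosol or nucleus and carried across the membrane by SLC35 transporters. GalNAc transferases start mucin-type O-glycans, beta-4 and beta-3 galactosyltransferases build the linker that joins glycosaminoglycans to proteoglycan cores, exostosins polymerize heparan sulfate, and sulfotransferases then add sulfate from the donor PAPS. Heparan sulfate binds FGF, Wnt and other ligands, and in zebrafish and Xenopus several of these enzymes are known to act on ciliated cells or on left-right patterning.

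The libraries held 8698990 to 11235726 assigned reads in Vgll4l knockdown, 9071323 to 10774775 in Yap/Taz knockdown and 4487894 to 6148871 in control, and values below are normalized counts, which are reads divided by a size factor for each library. The vgll4l transcript was at 1016 to 1107 normalized counts in Vgll4l knockdown, 1556 to 1677 in Yap/Taz knockdown and 6694 to 7266 in control, yap1 was at 1368 to 1547, 1738 to 1802 and 2122 to 2391 in the same order, and wwtr1 (Taz) was at 0.977 to 3.82, 6.39 to 11.3 and 0 in every control library. A morpholino blocks splicing or translation, so these levels are no test of the knockdown. The 8 listed DFC markers (sox17, sox32, vgll4l, foxj1a, ta, cftr, dand5 and tbx16) together took 0.437% to 0.455% of normalized counts in Vgll4l knockdown, 0.578% to 0.580% in Yap/Taz knockdown and 1.54% to 1.59% in control, and 7 and 6 of the 7 tested markers were lower than control in Vgll4l and Yap/Taz knockdown. dand5 was barely counted, with no read in the 8 knockdown libraries and 8 reads over the 4 control libraries, and was not tested. The 16 markers of the enveloping layer, the outer epithelium beside which DFCs lie, took 4.00% to 4.54%, 0.787% to 0.795% and 0.545% to 0.584%, with 12 of 16 higher in Vgll4l knockdown, and 14 markers of the yolk syncytial layer took 0.615% to 0.626%, 1.25% to 1.27% and 0.198% to 0.219%, with 9 of 12 tested higher in Vgll4l and 8 in Yap/Taz knockdown. Of the 16 enveloping layer markers, 1 was lower in Vgll4l knockdown, and 2 were higher and 4 lower in Yap/Taz knockdown. Of the yolk syncytial layer markers, 3 were lower in Vgll4l and 2 in Yap/Taz knockdown. The 8 markers of epidermal ectoderm took 0.0723% to 0.0743%, 0.0186% to 0.0196% and 0.0156% to 0.0169% in the same order, and the 8 of paraxial mesoderm 0.0345% to 0.0364%, 0.00412% to 0.00463% and 0.0129% to 0.0147%. Of the 8 epidermal markers, 6 were higher and 1 lower in Vgll4l knockdown, and 2 higher and 4 lower in Yap/Taz knockdown. Of 6 tested paraxial mesoderm markers, 4 were higher and 0 lower in Vgll4l knockdown, and 2 higher and 2 lower in Yap/Taz knockdown. In such bulk samples, fewer cells of a type and less RNA per cell cannot be told apart, and the part of these marker shifts in the results below was not tested. Pairs of libraries within Yap/Taz knockdown differed little beyond counting noise (chi-square per degree of freedom 1.62 to 2.30). In control, replicates 1 and 2 were as close, and so were replicates 3 and 4 (1.64 to 1.76). The other control pairs differed more (3.77 to 4.77). Pairs with Vgll4l replicate 2 differed most (8.27 to 11.4, against 1.82 to 2.74 for the other Vgll4l pairs). The p-values therefore measure only the spread between these libraries, which may be technical. In 18 of 69 tested members, control lay more than 1 on the log2 scale from the other Vgll4l libraries, and replicate 2 lay more than 0.5 from them towards control. Shifts of replicate 2 away from control were not counted, and the share over all genes was not computed.

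Of the 103 members, 22 had no read in any library, 12 had reads but a mean under 1 normalized count, and 69 passed that minimum and were tested; 17609 genes were tested in all. A gene was called when its log2 fold change was at least 1 in size and its adjusted p was under 0.05 in limma, with the Benjamini-Hochberg adjustment over all tested genes. In Vgll4l knockdown against control, 51 of the 69 tested members were called, 25 higher and 26 lower, against a background of 71.4% of all tested genes called (30.5% higher and 40.9% lower). In Yap/Taz knockdown against control, 53 were called, 23 higher and 30 lower, against a background of 68.7% (30.0% higher and 38.7% lower). The members' shares, 73.9% and 76.8%, were near that background, so the number of calls is no result about these genes, and what follows describes which members moved and by how much. Counts of calls given below for each family stand beside the same all-gene shares, and no family was tested as a set. The libraries of the 2 groups did not overlap in 52 and 57 members, against 79.2% and 80.9% of all genes. The median log2 fold change was 0.24 over tested members and -0.26 over all tested genes in Vgll4l knockdown, and -0.23 and -0.27 in Yap/Taz knockdown. With genes at 0 in a group held at a floor of 3 reads over its 4 libraries, these medians were 0.11 and -0.22, and -0.23 and -0.21. Without Vgll4l replicate 2, 54 members were called in Vgll4l knockdown, 27 higher and 27 lower. Over all 17609 tested genes, 5311 were then higher and 7297 lower. Both comparisons share the 4 control libraries. TMM scaling moved the median of all genes up by 0.19 and 0.12 on the log2 scale, and no named member changed direction under it.

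**Figure D1:**
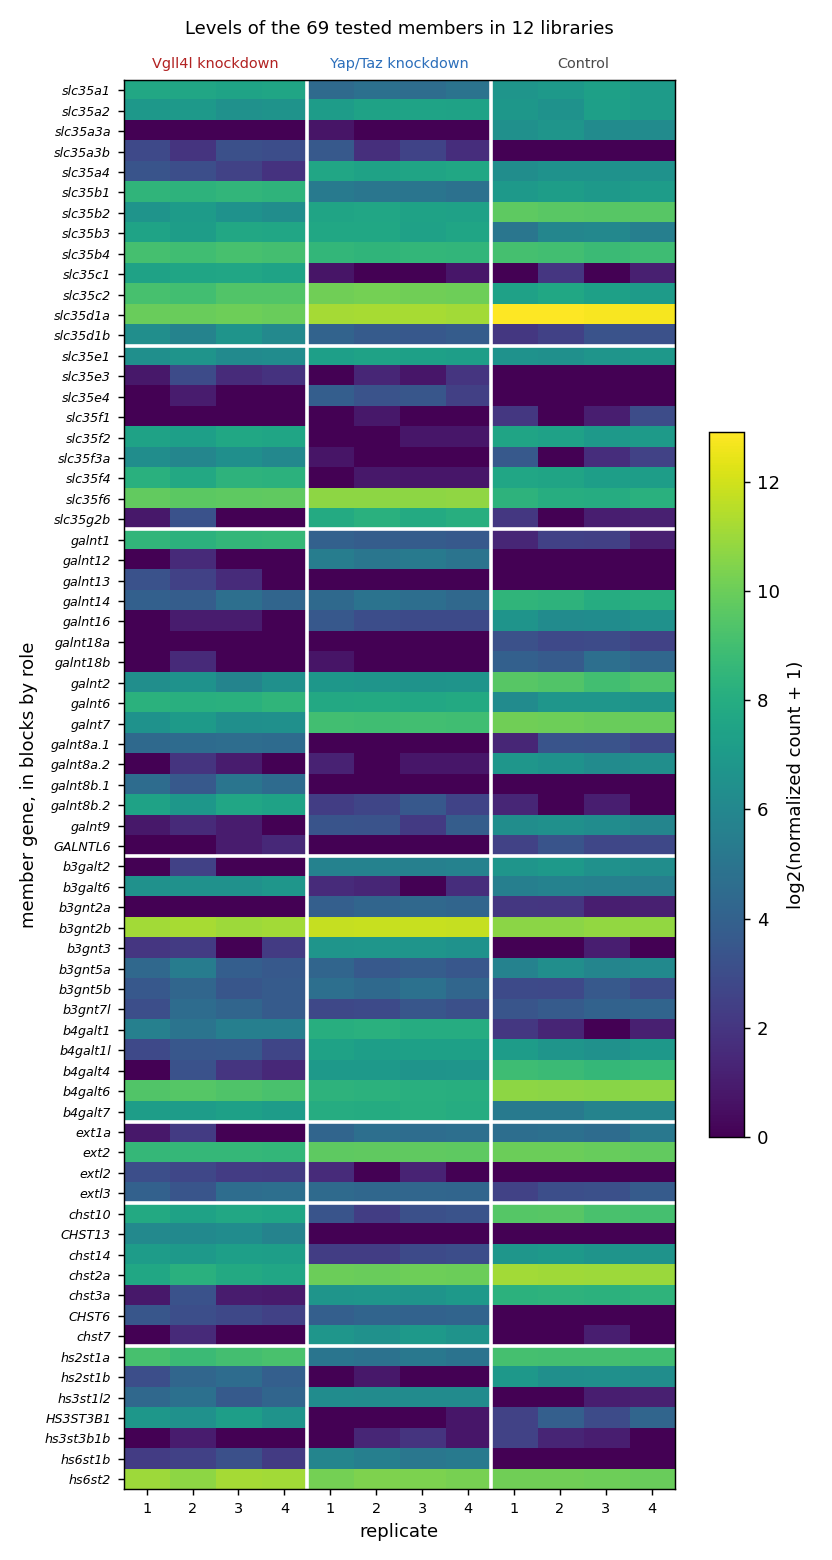
Levels of the 69 tested members, as log2(normalized count + 1), with 1 row per gene in blocks by role (white lines) and 1 column per library, 4 each from Vgll4l knockdown, Yap/Taz knockdown and control. Libraries of a group look alike, while some members are well counted in 1 group and near 0 in another, such as slc35c1, near 0 outside Vgll4l knockdown, and slc35f2, near 0 in Yap/Taz knockdown.

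The member that lost the most normalized counts in both knockdowns was slc35d1a (ENSDARG00000011973). Its mammalian counterpart carries UDP-glucuronic acid and UDP-GalNAc into the endoplasmic reticulum and is needed for chondroitin sulfate of cartilage. It had 994, 986, 1060.2 and 974 normalized counts in Vgll4l knockdown, 2284, 2391, 2374 and 2246 in Yap/Taz knockdown, and 7657, 7541, 6938 and 6708 in control. The 3 groups were fully separate, with the lowest values in Vgll4l knockdown. The log2 fold change against control was -2.84 ± 0.05 (SE) in Vgll4l knockdown (adjusted p = 8.3e-15) and -1.63 ± 0.05 in Yap/Taz knockdown (adjusted p = 1.4e-12), and Vgll4l knockdown was also lower than Yap/Taz knockdown (-1.21 ± 0.05, adjusted p = 2.4e-11). This single gene held 7.44% to 8.01% of all members' normalized counts in Vgll4l knockdown, 14.2% to 14.7% in Yap/Taz knockdown and 31.4% to 32.7% in control. The members together took 0.149% to 0.153%, 0.219% to 0.226% and 0.311% to 0.323% of each library in that order of groups.

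The fall of slc35d1a ran alongside the lower share of DFC markers given above. As a percent of the summed DFC markers, a ratio chosen after its values were seen, slc35d1a stood at 2.62 ± 0.0612 in Vgll4l knockdown, 5.56 ± 0.162 in Yap/Taz knockdown and 6.52 ± 0.144 in control (SD, n = 4 each). The ratio is given as a description, with no test. Its duplicate slc35d1b was at 81.8, 53.8, 101 and 65.4 in Vgll4l knockdown, 16, 12, 10.8 and 12.4 in Yap/Taz knockdown and 3.24, 4.58, 9.02 and 8.29 in control. It rose in Vgll4l knockdown (3.44 ± 0.31, adjusted p = 9.5e-08), while its difference in Yap/Taz knockdown lay at the fold limit (1.00 ± 0.31, not called) and passed it in 8 of the alternatives tried. Whether reads could be shared between the duplicates is not given in the sources used here, so values of close copies are uncertain to that extent.

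**Figure D2:**
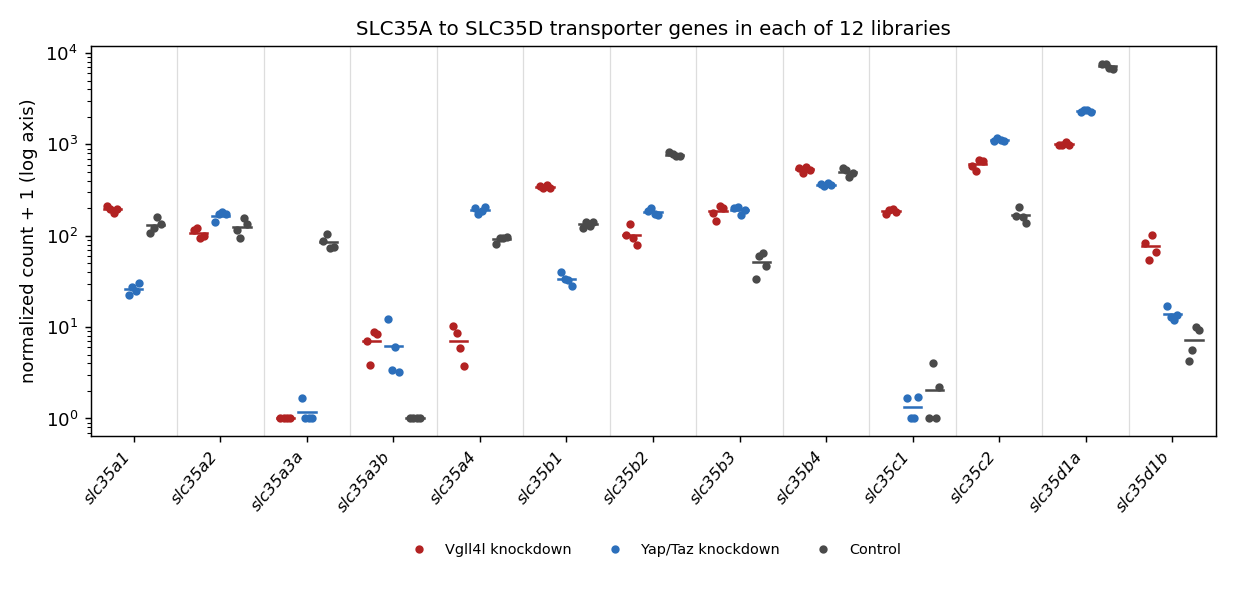
Normalized count + 1 (log axis) of the 13 tested SLC35A to SLC35D genes, with 1 point per library and a bar at the group mean, for Vgll4l knockdown, Yap/Taz knockdown and control from left to right in each gene. slc35d1a and slc35b2 are lower in both knockdowns, slc35c2 and slc35b3 higher in both, and slc35a4 and slc35b1 differ in opposite directions.

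Among the 13 tested SLC35A to SLC35D transporters, 6 were higher and 4 lower in Vgll4l knockdown, and 4 higher and 5 lower in Yap/Taz knockdown. The PAPS carriers, which bring the sulfate donor into the Golgi apparatus, moved apart. slc35b2, the gene mutated in zebrafish pinscher, fell to 100.1, 135, 93.8 and 78.3 in Vgll4l knockdown and 187, 200.4, 174 and 168 in Yap/Taz knockdown, against 821, 781, 755 and 740.1 in control. Its log2 fold changes were -2.94 ± 0.13 (adjusted p = 8.7e-11) and -2.08 ± 0.13 (adjusted p = 2.9e-09). slc35b3, whose mammalian counterpart is the other PAPS carrier, had 177, 145, 212 and 199 in Vgll4l knockdown, 203, 204, 166 and 189 in Yap/Taz knockdown and 32.4, 59.5, 63.1 and 46.2 in control, a rise of 1.88 ± 0.19 and 1.94 ± 0.19 (adjusted p = 4.2e-07 and 3.2e-07). For both genes the 4 libraries of each knockdown lay on the same side of all control libraries.

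The fucose carriers gave another contrast. slc35c1, the GDP-fucose transporter of the Golgi apparatus, was at 170.4, 191, 195 and 179.7 in Vgll4l knockdown, at 0.666, 0, 0 and 0.73 in Yap/Taz knockdown and at 0, 3.05, 0 and 1.18 in control. Only the Vgll4l libraries held more than a few reads: the ratio to control, whose 4 libraries held 3 reads, was 174 with a 95% Poisson interval on those reads of 63.1 to 894 (adjusted p = 1.9e-09). slc35c2, which is linked to fucosylation of Notch in mammalian cells, had 574, 506, 669 and 664 in Vgll4l knockdown, 1085, 1173, 1109 and 1081 in Yap/Taz knockdown and 165, 208, 159 and 136 in control. It rose in both, by 1.85 ± 0.12 and 2.74 ± 0.12 (adjusted p = 2.7e-09 and 5.5e-11).

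A further set of carriers differed between the knockdowns. slc35a4, whose human counterpart carries CDP-ribitol, had 9.17, 7.55, 4.89 and 2.76 in Vgll4l knockdown, 201, 172, 188 and 208 in Yap/Taz knockdown and 79.3, 94.6, 93.6 and 95.9 in control. It fell in Vgll4l knockdown (-3.79 ± 0.25, adjusted p = 4.7e-09) and rose in Yap/Taz knockdown (1.07 ± 0.25, adjusted p = 0.0014), a fold that stayed at 1.07 when near-identical libraries were averaged, which left the Yap/Taz group as 1 value (adjusted p = 0.18). slc35b1, an ATP and ADP exchanger of the endoplasmic reticulum in mammalian cells, went the other way. Its counts were 348, 329, 358 and 336 in Vgll4l knockdown, 39.3, 32.7, 31.8 and 27 in Yap/Taz knockdown and 119.8, 142, 126 and 141 in control, with log2 fold changes of 1.37 ± 0.12 and -1.99 ± 0.12 (adjusted p = 7.7e-08 and 1.5e-09). slc35a1, the CMP-sialic acid transporter, had 209, 194, 179 and 194 in Vgll4l knockdown, 21.3, 26.3, 23.8 and 29.2 in Yap/Taz knockdown and 107, 121, 158 and 133 in control. It fell in Yap/Taz knockdown (-2.31 ± 0.14, adjusted p = 1.9e-09), and the Vgll4l difference of 0.59 ± 0.14 was under the fold limit.

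Among carriers of UDP-GlcNAc and UDP-galactose, a pair of copies was called in opposite directions and the others were not called. slc35a3a, a UDP-GlcNAc transporter gene, was at 0 in all 4 Vgll4l libraries, had 1 read over the 4 Yap/Taz libraries, and had 87.4, 104, 73.3 and 74.6 in control. It was at least 126-fold lower in Vgll4l knockdown, counting the knockdown at a floor of 3 reads over its 4 libraries, and lower by a ratio of 509 (95% Poisson interval 83.8 to 18446) in Yap/Taz knockdown. Its duplicate slc35a3b had 2.83 to 7.82 and 2.19 to 11.3 in the knockdowns and 0 in every control library and was called higher in both. The UDP-galactose transporter slc35a2 was not called in either comparison (-0.20 ± 0.15 and 0.43 ± 0.15), nor was slc35b4, a UDP-xylose and UDP-GlcNAc carrier (0.11 ± 0.08 and -0.45 ± 0.08).

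The SLC35E to SLC35G genes are mostly orphan carriers whose substrates are unknown. Of 9 tested, 3 were higher and 1 lower in Vgll4l knockdown, and 4 higher and 4 lower in Yap/Taz knockdown. slc35f2 had 173, 157, 205 and 192 in Vgll4l knockdown, only 2 reads over the 4 Yap/Taz libraries, and 186, 166, 122 and 129 in control. Yap/Taz knockdown was lower than control by a ratio of 416 (95% Poisson interval 115 to 3431, adjusted p = 8.3e-12). slc35f4 had the same shape, with 295, 218, 326 and 308 in Vgll4l knockdown, 3 reads in all in Yap/Taz knockdown and 196, 182, 148 and 143 in control, a ratio of 297 (105 to 1488) below control in Yap/Taz knockdown. slc35g2b was the reverse, with 0.764, 8.5, 0 and 0 in Vgll4l knockdown, 238, 289.8, 235 and 267 in Yap/Taz knockdown and 3.24, 0, 1.13 and 1.18 in control, so that only Yap/Taz libraries held more than a few reads (6.93 ± 0.63, adjusted p = 1.3e-07).

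slc35f6, whose mammalian counterpart sits in lysosomes, rose in both knockdowns. It had 880.3, 796, 842 and 875 in Vgll4l knockdown, 1691, 1688, 1700.4 and 1720.1 in Yap/Taz knockdown and 321, 261, 251 and 288 in control, with log2 fold changes of 1.60 ± 0.07 and 2.60 ± 0.07 (adjusted p = 6.1e-11 and 8.3e-13). slc35f3a was higher in Vgll4l knockdown, at 78.7, 59.5, 85 and 63.6 against 11.3, 0, 2.25 and 4.74 in control (4.21 ± 0.57, adjusted p = 9.2e-06). Its call of lower in Yap/Taz knockdown rested on 1 read there against 13 control reads, and the libraries of those groups overlapped.

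GalNAc transferases attach the first sugar of mucin-type O-glycans to serine or threonine. All but 1 of the 17 members were tested: 6 were higher and 9 lower in Vgll4l knockdown, and 4 higher and 10 lower in Yap/Taz knockdown. Over all tested genes, 30.5% were higher and 40.9% lower in Vgll4l knockdown, and 30.0% and 38.7% in Yap/Taz knockdown. galnt1, a broadly acting family member in mammals, had 362, 313, 378 and 386 in Vgll4l knockdown, 15.3, 12.8, 12.3 and 10.9 in Yap/Taz knockdown and 1.62, 4.58, 4.51 and 1.18 in control. It rose by 6.63 ± 0.30 and 1.92 ± 0.30 (adjusted p = 8e-11 and 3.4e-05), so that its Vgll4l libraries stood far above the other 8, and the Yap/Taz call was lost with a pseudocount of 10 (0.82). galnt6 was higher in both as well, at 299, 282, 294 and 342 in Vgll4l knockdown and 223, 229, 214 and 228 in Yap/Taz knockdown against 74.5, 109.9, 110.5 and 99.5 in control (1.63 ± 0.12 and 1.19 ± 0.12).

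The falls among GalNAc transferases were as large. galnt14 had 14.5, 13.2, 25.4 and 17.5 in Vgll4l knockdown, 20.0, 28.7, 24.5 and 19.7 in Yap/Taz knockdown and 345, 328, 249 and 276 in control, log2 fold changes of -4.04 ± 0.21 and -3.64 ± 0.21 (adjusted p = 3.7e-10 and 1.1e-09). galnt16 was nearly absent from Vgll4l knockdown, with 2 reads over 4 libraries, was at 10.7, 7.19, 6.5 and 6.57 in Yap/Taz knockdown, and was at 102, 73.2, 76.7 and 91.2 in control. galnt9 followed it, with 0.764, 1.89, 0.977 and 0 in Vgll4l knockdown, 9.33, 8.78, 3.61 and 13.1 in Yap/Taz knockdown and 79.3, 87, 75.5 and 56.8 in control (-5.39 ± 0.38 and -3.05 ± 0.38). Of the better counted members outside the naming rule, and so chosen after their values were seen, galnt7, which in mammals acts on peptides that already carry GalNAc, had 94, 131, 86 and 86.6, 505, 484, 510.3 and 489 and 1088, 1049.8, 977 and 973 in Vgll4l knockdown, Yap/Taz knockdown and control, and galnt2 had 83.3, 95.4, 54.7 and 89.4, 111, 104, 97.4 and 103 and 751, 676, 517 and 623. Both fell in both knockdowns, galnt7 by -3.37 ± 0.11 and -1.04 ± 0.11 and galnt2 by -2.99 ± 0.16 and -2.60 ± 0.16 as log2 fold changes.

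The galnt8 copies lie in neighbouring pairs in the GRCz12tu gene order, while reads were counted on GRCz10, and the copies may share reads. galnt8a.2 was at 0, 2.83, 0.977 and 0 in Vgll4l knockdown, 1.33, 0, 0.722 and 0.73 in Yap/Taz knockdown and 108, 93.1, 73.3 and 82.9 in control, and it fell in both (-5.75 ± 0.42 and -5.78 ± 0.42, adjusted p = 1.1e-08 in each). galnt8b.2 was at 170.4, 114, 197 and 173 in Vgll4l knockdown, 4, 5.59, 10.8 and 5.11 in Yap/Taz knockdown and 1.62, 0, 1.13 and 0 in control, and rose in both, by a ratio to the 2 control reads of 239 (68.1 to 2032) and 9.29 (2.65 to 79.1). The Yap/Taz call of galnt8b.2 was lost with a pseudocount of 10 (0.60). The other galnt8a copy, galnt8a.1, was at 20.6 to 23.5 in Vgll4l knockdown and 1.62 to 9.16 in control, with no read in Yap/Taz knockdown. It was called higher in Vgll4l and lower in Yap/Taz knockdown. The other galnt8b copy, galnt8b.1, was at 11.3 to 31.3 in Vgll4l knockdown, where it was called higher, and had no read in Yap/Taz knockdown or control. galnt11, which in Xenopus glycosylates Notch1 and takes part in left-right patterning, had no read in either knockdown and 4 reads in control, and was not tested.

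**Figure D3:**
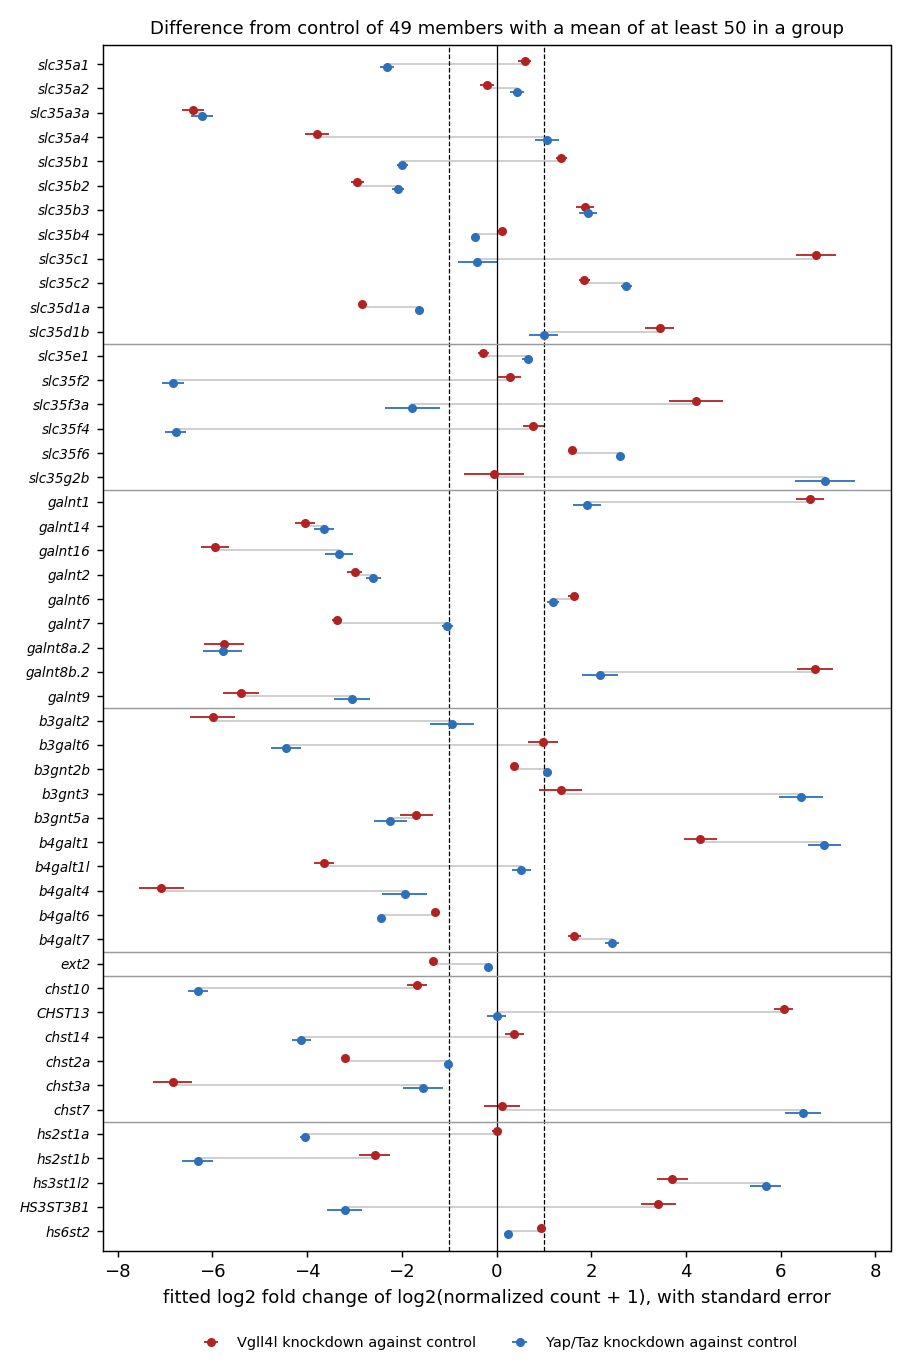
Log2 fold change against control of the 49 members with a mean of at least 50 normalized counts in a group, in blocks by role, for Vgll4l knockdown and Yap/Taz knockdown; bars are standard errors and dashed lines mark a log2 fold change of 1 in either direction. Lines that join points on opposite sides of 0 belong to genes such as slc35a4, slc35b1 and HS3ST3B1, and fitted values of genes near 0 in a group depend on the pseudocount.

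The linker that joins glycosaminoglycans to proteins needs galactose from a pair of enzymes in turn. b4galt7 encodes the enzyme that adds the first, and had 142, 142, 160.3 and 137 in Vgll4l knockdown, 252, 241, 267 and 251 in Yap/Taz knockdown and 37.2, 38.1, 54.1 and 56.8 in control. It rose in both (1.64 ± 0.14 and 2.44 ± 0.14, adjusted p = 6.3e-08 and 9.7e-10). b3galt6 encodes the enzyme that adds the next, and had 92.5, 90.6, 91.9 and 108 in Vgll4l knockdown, 2, 1.6, 0 and 2.19 in Yap/Taz knockdown and 46.9, 51.9, 47.3 and 45 in control. It fell in Yap/Taz knockdown to 8 reads over 4 libraries (-4.45 ± 0.32, adjusted p = 9.3e-09). In Vgll4l knockdown its 4 libraries all lay above control, but the difference was just under the fold limit (0.98 ± 0.32, adjusted p = 0.01) and passed it under 7 of the alternatives.

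Exostosins lengthen heparan sulfate chains. ext2, the gene mutated in zebrafish dackel, had 385, 379, 391 and 375 in Vgll4l knockdown, 842, 856, 865 and 840.0 in Yap/Taz knockdown and 1018, 1021, 950.4 and 885 in control. It fell in Vgll4l knockdown (-1.34 ± 0.05, adjusted p = 2.7e-11), and the Yap/Taz difference of -0.18 ± 0.05 was not called. The difference between the knockdowns was called as well (-1.15 ± 0.05, adjusted p = 1.4e-10). ext1a, the partner chain enzyme, was named after its values were seen. It had only 0 to 3.78 in Vgll4l knockdown, 17.3 to 25.6 in Yap/Taz knockdown and 22.5 to 35.5 in control. Like ext2, it was lower in Vgll4l knockdown and not called in Yap/Taz knockdown. extl3, which starts the heparan sulfate chain and is mutated in zebrafish boxer, had few counts, 15.3, 9.44, 23.5 and 24.9 in Vgll4l knockdown, 21.3, 19.2, 18 and 17.5 in Yap/Taz knockdown and 4.86, 7.63, 7.89 and 11.8 in control. Its calls of higher (1.06 ± 0.32 and 1.20 ± 0.32) were lost with a pseudocount of 10 (0.62 and 0.70) and, at folds of 1.03 and 1.17, with near-identical libraries averaged (adjusted p = 0.089 and 0.17), and in Vgll4l knockdown also without control replicate 1 (0.86), Vgll4l replicate 3 (0.91) or Vgll4l replicate 4 (0.88).

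Heparan sulfate sulfotransferases place sulfates that set which ligands a chain binds. Of their 17 members 9 had no read anywhere, among them hs6st1a, and 7 were tested. hs2st1a, which sulfates uronic acid at its 2-O position, had 557, 444, 533 and 587 in Vgll4l knockdown, 31.3, 27.9, 35.4 and 29.2 in Yap/Taz knockdown and 539, 534, 537 and 491 in control. It fell in Yap/Taz knockdown (-4.05 ± 0.10, adjusted p = 5.4e-13) and did not differ detectably in Vgll4l knockdown (0.01 ± 0.10). Its duplicate hs2st1b was lower in both, at 7.64, 17.9, 22.5 and 13.8 in Vgll4l knockdown, 1 read in all in Yap/Taz knockdown and 118, 83.9, 87.9 and 78.2 in control. Yap/Taz knockdown was therefore the group with the lowest counts of both copies.

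hs6st2, which adds 6-O sulfate, was among the 5 members with the most control counts. It had 2042, 1694, 2319.7 and 2248 in Vgll4l knockdown, 1167, 1357, 1294 and 1238 in Yap/Taz knockdown and 1101, 1114, 1077 and 1003 in control. Vgll4l libraries were all above control, at 0.94 ± 0.09, just under the fold limit, which was passed under TMM scaling (1.16), in edgeR (1.15) and without Vgll4l replicate 2 (1.04). Yap/Taz libraries differed by 0.23 ± 0.09. Its relative hs6st1b, named after its values were seen, was at 3.69 to 7.82 in Vgll4l knockdown, 33.9 to 57.3 in Yap/Taz knockdown and 0 in every control library.

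3-O sulfation is the rarest heparan sulfate modification, and 2 of its genes were well counted. HS3ST3B1, given this human symbol in the table, had 114, 91.6, 150.5 and 99.5 in Vgll4l knockdown, 0, 0, 0 and 0.73 in Yap/Taz knockdown and 4.86, 13.7, 6.76 and 17.8 in control. It was higher in Vgll4l knockdown (3.41 ± 0.37, adjusted p = 8.4e-07) and lower in Yap/Taz knockdown, where 1 read remained, a ratio below control of 59.1 (95% Poisson interval 10.7 to 2346), with the call lost at a pseudocount of 10 (-0.98). hs3st1l2 had 19.9, 26.4, 11.7 and 17.5 in Vgll4l knockdown, 76.6, 72.7, 75.1 and 73 in Yap/Taz knockdown and 2 reads over the control libraries. It rose in both, by ratios of 32.7 (7.85 to 234) and 129 (30.9 to 922).

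**Figure D4:**
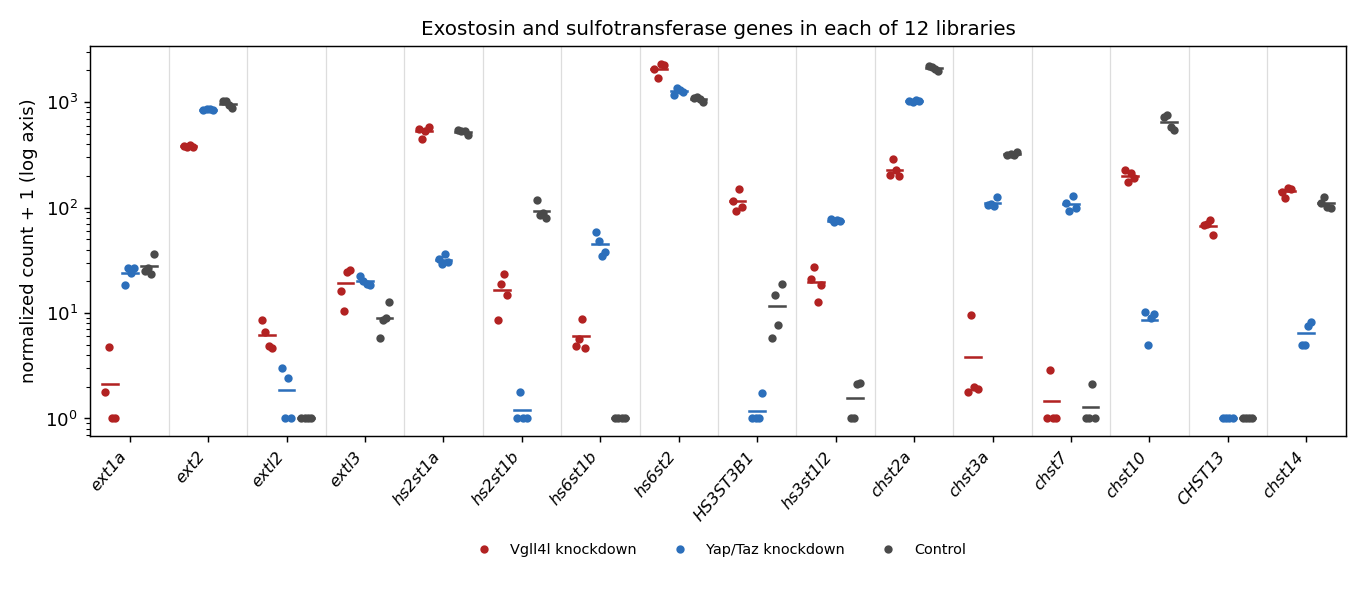
Normalized count + 1 (log axis) of 16 exostosin and sulfotransferase genes, with 1 point per library and a bar at the group mean, for Vgll4l knockdown, Yap/Taz knockdown and control from left to right in each gene. hs2st1a, chst10 and chst14 are lowest in Yap/Taz knockdown, chst2a, chst3a and ext2 in Vgll4l knockdown, and CHST13 had reads only in Vgll4l knockdown.

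CHST enzymes sulfate chondroitin, keratan and other chains; 7 of 15 were tested, with 2 higher and 3 lower in Vgll4l knockdown and 2 higher and 4 lower in Yap/Taz knockdown. chst2a, a GlcNAc 6-O sulfotransferase, had 202, 286, 227 and 200.0 in Vgll4l knockdown, 1035, 1002, 1050.1 and 1020.2 in Yap/Taz knockdown and 2186, 2139, 2073 and 1963 in control. It fell in Vgll4l knockdown (-3.20 ± 0.09, adjusted p = 1.6e-12) and, near the fold limit, in Yap/Taz knockdown (-1.02 ± 0.09), where the call was lost under TMM scaling (-0.88) and in edgeR (-0.89). chst10, which makes the HNK-1 sulfated epitope of neural glycoproteins in mammals, had 225, 175, 211 and 189.8 in Vgll4l knockdown, 9.33, 3.99, 7.94 and 8.76 in Yap/Taz knockdown and 724, 754, 578 and 545 in control. Its log2 fold changes were -1.69 ± 0.21 and -6.30 ± 0.21 (adjusted p = 3.5e-06 and 5.3e-12), so the lower level was in Yap/Taz knockdown.

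The chondroitin and dermatan enzymes each followed a pattern of their own. chst3a, a chondroitin 6-O sulfotransferase, fell to 0.764, 8.5, 0.977 and 0.922 in Vgll4l knockdown and 105, 107, 103 and 126 in Yap/Taz knockdown, against 312, 325, 316 and 337 in control (-6.84 ± 0.42 and -1.55 ± 0.42, adjusted p = 1.8e-09 and 0.0036). Its Yap/Taz libraries all lay below control, and the standard error is shared with the Vgll4l libraries, which were near 0. With near-identical libraries averaged and the Yap/Taz group thus 1 value, the Yap/Taz fold was -1.54, and no spread within Yap/Taz knockdown entered that fit. chst7, also a chondroitin 6-O sulfotransferase, had 2 reads over the Vgll4l libraries, 109.9, 92.6, 127 and 99.3 in Yap/Taz knockdown and 1 read over the control libraries, a Yap/Taz ratio to control of 380.4 (57.8 to 12722). chst14, the dermatan 4-O sulfotransferase, had 141, 123, 152 and 149 in Vgll4l knockdown, 4, 3.99, 6.5 and 7.3 in Yap/Taz knockdown and 110.1, 125, 101 and 98.3 in control, and fell only in the Yap/Taz comparison (-4.12 ± 0.19, adjusted p = 1.3e-10; 0.38 ± 0.19 in Vgll4l knockdown, not called; 4.50 ± 0.19 between the knockdowns, adjusted p = 7e-11). CHST13, a chondroitin 4-O sulfotransferase, had 67.2, 68.9, 75.2 and 53.4 in Vgll4l knockdown and no read in the other 8 libraries, at least 66.3-fold above control and 122-fold above Yap/Taz knockdown at a floor of 3 reads per group. chst11, the main chondroitin 4-O sulfotransferase of cartilage, had no read in any library.

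The remaining chain transferases extend N-glycans, O-glycans and glycolipids; of 13 tested members of the family, 3 were higher and 6 lower in Vgll4l knockdown, and 6 higher and 4 lower in Yap/Taz knockdown. Galactosyltransferases moved in both directions. b4galt1, which galactosylates N-glycans, had 48.1, 30.2, 46.9 and 47 in Vgll4l knockdown, 268, 287, 257 and 253 in Yap/Taz knockdown and 3.24, 1.53, 0 and 1.18 in control, rising in both (4.30 ± 0.35 and 6.92 ± 0.35, adjusted p = 3.3e-08 and 2.4e-10). Its close copy b4galt1l had 6.11, 10.4, 10.7 and 5.53, 169, 150.1, 162 and 158 and 138, 104, 90.2 and 116 in the same order, a fall in Vgll4l knockdown (-3.65 ± 0.21, adjusted p = 9.5e-10) with no call in Yap/Taz knockdown (0.53 ± 0.21). The copies may share reads. b4galt4 had 0, 8.5, 2.93 and 1.84 in Vgll4l knockdown, 122, 119.8, 102 and 106 in Yap/Taz knockdown and 481, 447, 391 and 420.4 in control, and was called lower in both (-7.08 ± 0.47 and -1.94 ± 0.47). The Yap/Taz libraries of b4galt4 all lay below control, and the standard error is shared with the Vgll4l libraries, which were near 0. With near-identical libraries averaged as above, its Yap/Taz fold was -1.94.

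Among glycolipid enzymes, b4galt6, a lactosylceramide synthase in mammals, had 669, 716, 659.6 and 586 in Vgll4l knockdown, 318, 315, 284 and 274 in Yap/Taz knockdown and 1663, 1629.7, 1563 and 1612 in control. It fell in both (-1.30 ± 0.07 and -2.44 ± 0.07, adjusted p = 4.1e-10 and 1.3e-12) and further in Yap/Taz knockdown (1.14 ± 0.07 between the knockdowns, adjusted p = 2.1e-09). b3gnt5a, which extends lactosylceramide, had 19.9, 42.5, 13.7 and 11.1 in Vgll4l knockdown, 17.3, 11.2, 13 and 10.2 in Yap/Taz knockdown and 51.8, 80.9, 57.5 and 68.7 in control, and also fell in both (-1.69 ± 0.35 and -2.24 ± 0.35). b3galt2, a galactosyltransferase of GlcNAc ends, had 5 reads in Vgll4l knockdown, all in replicate 2, 51.3, 51.9, 48.4 and 51.1 in Yap/Taz knockdown and 107, 119, 90.2 and 79.3 in control. It was called lower in Vgll4l knockdown (adjusted p = 2.4e-08), and the Yap/Taz difference of -0.93 ± 0.47 was not called. Its Yap/Taz libraries all lay below control, and that standard error is shared with the Vgll4l libraries.

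The b3gnt genes add GlcNAc to galactose-ended chains. b3gnt2b, which builds poly-N-acetyllactosamine, was among the members with the most counts, with 2253, 2358, 2071 and 2204 in Vgll4l knockdown, 3534, 3592, 3575 and 3487 in Yap/Taz knockdown and 1604, 1634, 1780.1 and 1815 in control. It rose in Yap/Taz knockdown (1.06 ± 0.05, adjusted p = 8.8e-11), and the Vgll4l difference was 0.38 ± 0.05, under the fold limit. b3gnt3, which extends core 1 O-glycans in mammals, had 3.06, 3.78, 0 and 3.69 in Vgll4l knockdown, 105, 109, 106 and 94.1 in Yap/Taz knockdown and 1 read over the control libraries, a ratio to control of 367 (55.8 to 12285) in Yap/Taz knockdown.

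The knockdowns were set against each other directly, since a call in a single comparison does not show a difference between them. Vgll4l knockdown was higher than Yap/Taz knockdown in 21 members and lower in 23, against a background of 30.0% higher and 33.2% lower over all genes (63.2% called), and the members' 63.8% was near it. Their libraries did not overlap in 54 members, against 75.3% of all genes. On the log2(normalized count + 1) scale, and among members averaging 50 or more in either knockdown, the largest differences in favour of Vgll4l knockdown were slc35f4, slc35c1 and slc35f2, whose Yap/Taz libraries held 3, 2 and 2 reads. The ratios were 509.9 (180.2 to 2554), 527 (140.4 to 4187) and 500.4 (138 to 4130.1), and the ratio of HS3ST3B1 on 1 Yap/Taz read was 624 (113 to 24777), so the order on the log2 scale is not the order of the ratios. In favour of Yap/Taz knockdown, the largest on that scale were slc35g2b (-6.99 ± 0.63), chst7 (a ratio of 227, 66.4 to 1981) and chst3a (-5.29 ± 0.42). Members high only in Vgll4l knockdown, such as slc35c1 and CHST13, stood beside higher summed levels of enveloping layer, epidermal ectoderm and paraxial mesoderm markers in that group, given above. slc35g2b and chst7 were high only in Yap/Taz knockdown. The yolk syncytial layer markers were above control in both knockdowns, with the larger share in Yap/Taz knockdown (1.25% to 1.27%, against 0.615% to 0.626%). The 9 markers of neural ectoderm also had their largest share there, at 0.0373% to 0.0382%. Their share was 0.0244% to 0.0277% in Vgll4l knockdown and 0.0173% to 0.0202% in control. Of these 9, 2 were higher and 4 lower than control in Yap/Taz knockdown, and 4 higher and 0 lower in Vgll4l knockdown. The part of these cells in any member's level was not tested.

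Zebrafish kept duplicates of many of these genes, and 15 sets of copies with lettered symbols were found. Both copies were tested in 6 sets, a single copy in 7 and none in 2. Within the 6, the copies of slc35d1, slc35a3, hs2st1, b3gnt2, galnt18 and b3gnt5 can be set side by side. The galnt18 copies fell in both knockdowns (0 in nearly every knockdown library, against control ranges of 4.74 to 8.09 and 12.2 to 24.8), as did hs2st1b, whereas slc35a3a and slc35a3b were called in opposite directions in both comparisons. b3gnt2a was called lower in Vgll4l knockdown on no read there against 6 reads over the control libraries, while b3gnt2b was not called there. Both b3gnt2 copies were called higher in Yap/Taz knockdown. b3gnt2a, b3gnt5b, both galnt18 copies and slc35a3b are named only to complete these sets.

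The genes that feed or follow these members were taken from 7 lists, whose counts stand beside 30.5% higher and 40.9% lower over all tested genes in Vgll4l knockdown (median log2 fold change -0.26) and 30.0% higher and 38.7% lower in Yap/Taz knockdown (median -0.27). Of 26 tested genes of nucleotide sugar synthesis, 9 were higher and 8 lower in Vgll4l knockdown (median -0.46) and 7 higher and 11 lower in Yap/Taz knockdown (median 0.02). Genes of the UDP-GlcNAc route moved in both directions. uap1, which makes UDP-GlcNAc, had 159, 155, 178 and 145 in Vgll4l knockdown, 2, 0, 2.17 and 0.73 in Yap/Taz knockdown and 6.48, 12.2, 6.76 and 13 in control (3.97 ± 0.36 and -2.34 ± 0.36, both called). gnpnat1, an earlier enzyme of that route, had 93.2, 79.3, 70.4 and 78.3 in Vgll4l knockdown, 0.666, 2.4, 0 and 0.73 in Yap/Taz knockdown and 6.48, 3.05, 3.38 and 7.1 in control (3.82 ± 0.36 and -1.70 ± 0.36, both called). pgm3, between them, had 109, 106, 107 and 104 in Vgll4l knockdown, 3 reads in Yap/Taz knockdown and 125, 180.1, 123 and 104 in control. Other genes of that route, named after their values were seen, had the opposite order. uap1l1, a paralog of uap1, had 0, 2.83, 0 and 0.922 in Vgll4l knockdown, 24.6, 33.5, 38.3 and 25.5 in Yap/Taz knockdown and 3.24, 10.7, 7.89 and 7.1 in control (-2.23 ± 0.44 and 2.00 ± 0.44, both called). gfpt1, of the first step, had no read in Vgll4l knockdown, 7.33, 6.39, 1.44 and 8.76 in Yap/Taz knockdown and 2 reads in control, and was called higher in Yap/Taz knockdown, whereas its paralog gfpt2 had 32.9, 26.4, 45.9 and 47.9 in Vgll4l knockdown, 1 read in Yap/Taz knockdown and none in control. With a pseudocount of 10, the Yap/Taz calls of uap1 (-0.79), gnpnat1 (-0.45) and gfpt1 (0.55) and the Vgll4l call of uap1l1 (-0.64) were lost. With near-identical libraries averaged and the Yap/Taz group thus 1 value, the Yap/Taz fold of uap1l1 was 1.94, and no spread within Yap/Taz knockdown entered that fit.

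Other donor genes moved in both directions. ugp2b, which makes UDP-glucose, had 74.9, 68, 60.6 and 65.4 in Vgll4l knockdown, 908, 956, 989 and 944 in Yap/Taz knockdown and 93.9, 97.7, 98.1 and 98.3 in control, a rise in Yap/Taz knockdown (3.28 ± 0.08). Its duplicate ugp2a had 1 read in all over the 8 knockdown libraries and 63.1, 85.5, 80.0 and 59.2 in control. gmppb, which makes GDP-mannose, rose in both, with 73.4, 77.4, 68.4 and 62.7 in Vgll4l knockdown, 1075, 1136, 1055 and 1053 in Yap/Taz knockdown and 11.3, 15.3, 11.3 and 17.8 in control (2.28 ± 0.14 and 6.20 ± 0.14). fpgt, of the fucose salvage route, had 2 reads in Vgll4l knockdown, 1 in Yap/Taz knockdown and 97.1, 145, 90.2 and 114 in control. The genes gmds and ugdh of this list, named after their values were seen, had more control counts. gmds had means of 1428 in Vgll4l knockdown, 488 in Yap/Taz knockdown and 2650 in control (-0.89 ± 0.07, not called, and -2.44 ± 0.07, called). ugdh had means of 1307, 1320 and 1704 in the same order and was not called in either comparison (-0.39 ± 0.08 and -0.37 ± 0.08).

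**Figure D5:**
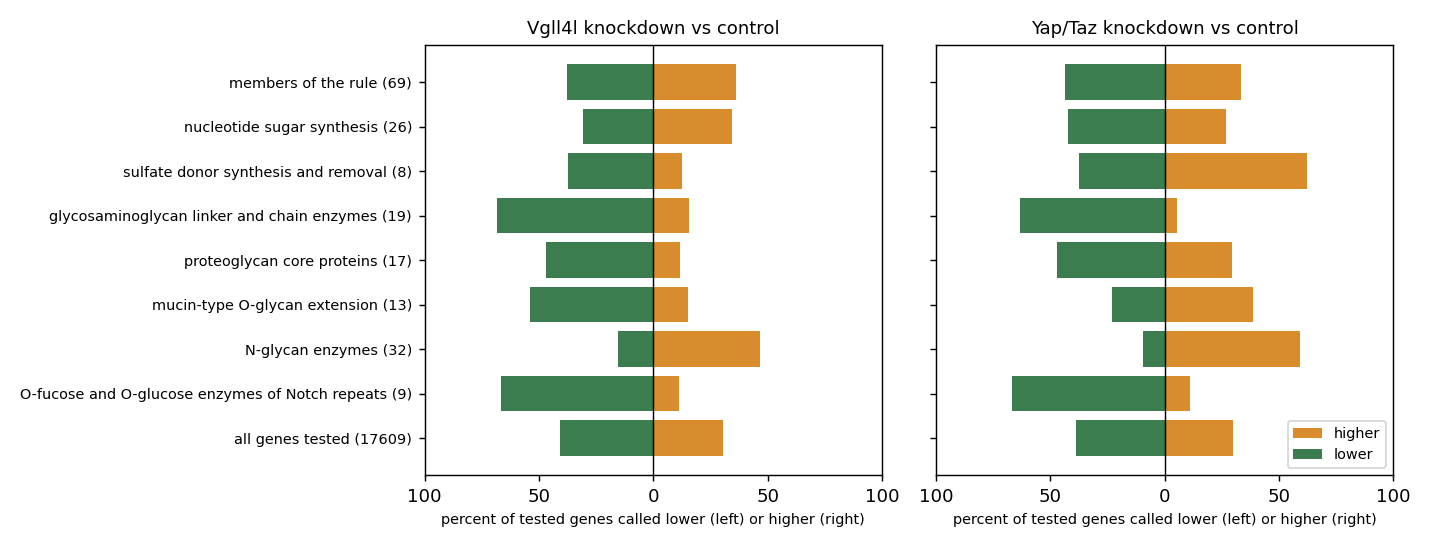
Percent of tested genes called higher (to the right of 0) or lower (to the left) against control in Vgll4l knockdown and in Yap/Taz knockdown, for the members, 7 pathway lists and all 17609 tested genes, with the number tested in parentheses. Both panels share the control libraries. In both, the lower bars of glycosaminoglycan linker and chain enzymes, proteoglycan core proteins and enzymes of Notch repeats are longer than that of all genes. The higher bars of N-glycan enzymes and, by less, of the members are also longer than that of all genes in both. No list was tested as a set.

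Glycosaminoglycan linker and chain enzymes outside the members gave 3 higher and 13 lower of 19 tested in Vgll4l knockdown (median -3.28) and 1 higher and 12 lower in Yap/Taz knockdown (median -2.62). b3gat3, which completes the linker with glucuronic acid after the step of b3galt6, had 3 reads in Vgll4l knockdown, 1 in Yap/Taz knockdown and 267, 233, 203 and 195 in control. glceb, the heparan sulfate epimerase, had 2.29, 15.1, 2.93 and 0.922 in Vgll4l knockdown, 4, 5.59, 4.33 and 8.03 in Yap/Taz knockdown and 675, 624, 539 and 546 in control. ndst2a, an N-deacetylase and N-sulfotransferase of heparan sulfate, had 1 read in Vgll4l knockdown, none in Yap/Taz knockdown and 113, 116, 101 and 84.1 in control. The rises in Vgll4l knockdown were pxylp1, the linker xylose phosphatase, at 163, 134, 170.0 and 166 in Vgll4l knockdown, 0, 0, 0 and 0.73 in Yap/Taz knockdown and 8.09, 13.7, 18 and 17.8 in control, ust, a uronyl 2-O sulfotransferase, at 69.5, 70.8, 88.9 and 84.8 in Vgll4l knockdown, 1 read in Yap/Taz knockdown and 0 in every control library, and has3, a hyaluronan synthase, at 35.9, 51.9, 34.2 and 41.5 in Vgll4l knockdown, 1 read in Yap/Taz knockdown and 2 reads in control. pxylp1 was called lower in Yap/Taz knockdown (-3.69 ± 0.29). The rise in Yap/Taz knockdown was chsy3, a chondroitin synthase, at 0, 0.944, 1.95 and 0 in Vgll4l knockdown, 52, 47.9, 60.6 and 65 in Yap/Taz knockdown and 4.86, 4.58, 4.51 and 2.37 in control. has3 is named to complete the rises. With only genes of a mean of at least 10 tested, 8 of this list were lower in each comparison.

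Proteoglycan core proteins gave 2 higher and 8 lower of 17 in Vgll4l knockdown (median -0.57) and 5 higher and 8 lower in Yap/Taz knockdown (median -0.92). With only genes of a mean of at least 10 tested, 4 were lower in Vgll4l and 5 in Yap/Taz knockdown. vcanb, a versican gene, had 0.764, 7.55, 0.977 and 0 in Vgll4l knockdown, 0, 0.798, 0 and 0 in Yap/Taz knockdown and 500.2, 476, 392 and 366 in control. Its duplicate vcana had 201, 175, 185 and 196 in Vgll4l knockdown, 0, 0, 0.722 and 0.73 in Yap/Taz knockdown and 209, 217, 199.5 and 208 in control. sdc2, a syndecan that carries heparan sulfate, was higher in both, at 218, 275, 240.4 and 249 in Vgll4l knockdown, 699.5, 692, 639 and 678 in Yap/Taz knockdown and 56.7, 68.7, 75.5 and 82.9 in control. The syndecan sdc4, named after its values were seen, had far more counts, with means of 4034, 3249 and 6015 in the same order. Its libraries lay below control in both knockdowns, under the fold limit (-0.57 ± 0.04 and -0.89 ± 0.04, not called). For sulfate donor synthesis and removal, 1 of 8 was higher and 3 lower in Vgll4l knockdown, and 5 higher and 3 lower in Yap/Taz knockdown (medians 0.10 and 2.31), of which 3 were higher in Yap/Taz knockdown at a minimum mean of 10. sulf1, which removes 6-O sulfate outside the cell, fell to 9.93, 25.5, 8.79 and 11.1 in Vgll4l knockdown and 70.0, 51.9, 72.9 and 48.2 in Yap/Taz knockdown, against 337, 352, 256 and 342 in control. The donor synthesis genes papss2b and papss1, named after their values were seen, moved apart in Yap/Taz knockdown. papss2b had means of 382 in Vgll4l knockdown, 61.6 in Yap/Taz knockdown and 306 in control. It was called lower in Yap/Taz knockdown only (-2.31 ± 0.12). papss1 was called higher there, at a mean of 37.6, with 0 in every control library. The other Yap/Taz rises were bpnt1, impad1, gnsa and ids.

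N-glycan enzymes gave 15 higher and 5 lower of 32 in Vgll4l knockdown (median 0.94) and 19 higher and 3 lower in Yap/Taz knockdown (median 1.13), beside the 30.5% and 30.0% higher over all tested genes. rpn2, a subunit of the oligosaccharyltransferase, had 666, 529, 773 and 734 in Vgll4l knockdown, 412, 454, 449 and 443 in Yap/Taz knockdown and 30.8, 47.3, 42.8 and 39.1 in control. fut8a, which adds core fucose from the donor that slc35c1 carries, had 327, 233, 372 and 355 in Vgll4l knockdown, 52, 42.3, 65 and 52.5 in Yap/Taz knockdown and 13, 6.1, 5.64 and 7.1 in control. Both rose in both knockdowns. Mucin-type O-glycan extension gave 2 higher and 7 lower of 13 in Vgll4l knockdown (median -1.30; 1 higher with a pseudocount or minimum mean of 10) and 5 higher and 3 lower in Yap/Taz knockdown (median 0.86). gcnt4a, a core 2 branching enzyme, rose to 896, 776, 953 and 887 in Vgll4l knockdown and 178, 178, 180.4 and 155 in Yap/Taz knockdown, against 3.24, 6.1, 2.25 and 2.37 in control. c1galt1b of the same list had means of 72.9 in Vgll4l knockdown, 555 in Yap/Taz knockdown and 546 in control. It fell in Vgll4l knockdown (-2.90 ± 0.15) and was not called in Yap/Taz knockdown (0.03 ± 0.15).

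Enzymes that modify Notch repeats gave 1 higher and 6 lower of 9 tested genes in each knockdown (medians -2.55 and -2.06), and 2 higher in Yap/Taz knockdown under TMM scaling and in edgeR. rfng, a Fringe GlcNAc transferase, had 1.53, 10.4, 0 and 0.922 in Vgll4l knockdown, 0, 1.6, 0 and 0.73 in Yap/Taz knockdown and 738, 708, 577 and 557 in control. mfng, another Fringe, had 3 reads in Vgll4l knockdown, none in Yap/Taz knockdown and 136, 131, 80.0 and 94.7 in control. The gene called higher was pofut1, which adds the O-fucose that Fringe extends: it had 494, 439, 599 and 581 in Vgll4l knockdown, 601, 558, 554 and 517 in Yap/Taz knockdown and 267, 249, 240.1 and 256 in control (1.05 ± 0.09 and 1.14 ± 0.09, adjusted p = 1e-07 and 4.6e-08). Its Vgll4l call lay at the fold limit and was lost without Vgll4l replicate 3 (0.98) or Vgll4l replicate 4, at a fold just under 1. With genes at 0 in a group held at the same floor, the list medians that changed were those of nucleotide sugar synthesis (-0.34 in Vgll4l and -0.0049 in Yap/Taz knockdown), sulfate donor synthesis and removal (-0.02 in Vgll4l knockdown) and N-glycan enzymes (0.75 in Vgll4l knockdown). The lists were described by counts and medians and were not tested as sets.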

How the data were processed

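Each library was made from a single DFC cluster with the SMART-Seq v4 kit and sequenced as 50-bp single-end reads, without molecular identifiers, so intervals cover counting error only. Per the labels and methods, the authors aligned reads with STAR to GRCz10, counted them per Ensembl gene with featureCounts and normalized them with DESeq2 (versions not given in the sources used here). The deposited normalized count signal is headed TPM, but nonzero values were whole multiples (tolerance 0.001) of 1 step per library, so whole reads could be recovered. The deposited log2 fold changes and adjusted p-values of the authors' own comparisons were not used.

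Genes with a mean of at least 1 over 12 libraries were fitted with limma 3.58.1 (R 4.3.3) on log2(normalized count + 1), with 3 group means and no covariate, and fold changes are on that scale, which understates changes of low genes. The fit used 1 spread per gene for all 3 groups. A standard error can therefore reflect the spread of a group outside the comparison. edgeR 4.0.16 and DESeq2 1.42.0 on recovered reads, other pseudocounts, filters, scaling, left-out libraries, averaging of near-identical libraries and a replicate block were alternatives. For groups with 1 to 3 reads, the interval of a ratio is the exact 95% Poisson interval of those reads. Promoter and protein sequences were not used here.

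Members and lists were chosen with earlier results of these data known. Members were named by rule: slc35d1a and slc35d1b; per role and knockdown up to 3 called rises and 3 falls averaging 50 or more where higher and not overlapping control; opposite calls; the 5 highest control means; the 3 largest differences each way between the knockdowns; members at 0 in a whole group; and a list of genes with known developmental roles, of which hs3st5 was not analysed here. Per pathway list, up to 2 rises and 2 falls per knockdown were eligible, and a selection of these is given. The limma procedure was tested on simulated data in which a small set of well counted genes was changed in the Vgll4l group only. Such data do not show how it performs on genes near 0 in a group or when most genes change.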

Additional observations from a re-analysis of the deposited data

Results flagged for a closer look

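In 79 groups of 4 libraries of named members with a mean of at least 50, 4 had a library far from the others, about what chance gives (1 in 20 groups). b3galt6 was at 107.8 in Vgll4l replicate 4, against 90.6 to 92.5 in the other Vgll4l libraries. chst3a was at 125.5 in Yap/Taz replicate 4, against 103 to 107 in the other Yap/Taz libraries. hs2st1a was at 491.4 in control replicate 4, against 534 to 539 in the other control libraries. slc35a4 was at 79.3 in control replicate 1, against 93.6 to 95.9 in the other control libraries.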

How the results depend on the processing

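With any library left out, 50 to 54 members were called in Vgll4l knockdown against control (24 to 27 higher, 26 to 27 lower), 51 to 53 in Yap/Taz knockdown (22 to 23 higher, 29 to 30 lower) and 43 to 46 between the knockdowns (21 to 23 higher, 22 to 24 lower). Over all tested genes, the same settings gave 5303 to 5376 higher and 7128 to 7297 lower in Vgll4l knockdown. They gave 5245 to 5306 higher and 6744 to 6828 lower in Yap/Taz knockdown. Between the knockdowns they gave 5207 to 5355 higher and 5768 to 5923 lower. With a pseudocount of 10, 16 were higher in Vgll4l knockdown, against 25, and at a fold limit of 2 on the log2 scale, 14 were higher in Vgll4l and 15 in Yap/Taz knockdown, against 25 and 23. Over all genes, 4368 were higher in Vgll4l knockdown with a pseudocount of 10, against 5368. All-gene counts at a fold limit of 2 are not given here, so the members' drop at that limit has no background to compare with. The stricter limit calls fewer genes by construction, and a larger pseudocount shrinks the folds of genes with low counts by construction. Same-numbered libraries of different groups did not deviate together (correlations -0.06 to 0.02), so numbers were not read as pairs, and with a replicate block the counts were 51, 53 and 44 and no named call changed. Over 135 comparisons of named members and 2970 alternative values, 18 comparisons changed a call, 25 values losing one and 19 gaining one, and none reversed direction; 10 of the losses came with a pseudocount of 10. Between the knockdowns, slc35f6 lost its call under TMM scaling (-0.93), in edgeR (-0.94), with a pseudocount of 10 and without Vgll4l replicate 2 (-0.97) or Yap/Taz replicate 4, the other folds lying just short of -1. Averaging near-identical libraries left the Yap/Taz group as 1 value and control as 2, replicates 1 with 2 and 3 with 4. The 4 Vgll4l libraries were kept apart, so this setting did not average Vgll4l libraries that were close to each other. The spread was taken from Vgll4l knockdown and control. Members with few reads in a group are limited by counting, and a count of 0 over 4 libraries allows a mean of up to 0.670, 0.545 and 0.999 normalized counts in Vgll4l knockdown, Yap/Taz knockdown and control.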
